A study of Caenorhabditis elegans with 2 samples.

Results

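*cbp-1* is the *Caenorhabditis elegans* homolog of the acetyltransferases CBP and p300, and is annotated on the plus strand of chromosome III (WBGene00000366, chrIII:9766509-9774825, ce11, a span of 8317 bp with 4 annotated transcripts). It is 1 of 19973 protein-coding genes of the nuclear chromosomes in the WBcel235 annotation. The locus was taken as all summits of LSY-12 regions within 20 kb of the most 5' annotated start of the gene. This window held 4 of the 2095 thresholded peaks of the series, and 24 of 30000 candidate regions in the pooled list. The replicate 3 list and the replicate 4 list also held 24 of 30000 each in the window. The gene was chosen by the high signal of its peak in the pooled list, so the level and rank of that peak are given as a description with no test.

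CBP and p300 are large coactivators that are brought to promoters and enhancers by transcription factors, where they acetylate histones and other proteins. In *C. elegans*, *cbp-1* is known to be essential and to be needed for the differentiation of embryonic cells. LSY-12, the protein that was precipitated here, belongs to the MYST family, another family of histone acetyltransferases, and is known from its role in the left-right difference of the ASE taste neurons.

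Binding was measured by ChIP-seq in strain OP568, which carries the *unc-119(tm4063)* allele on chromosome III and the integrated transgene wgIs568, with GFP and FLAG at the C terminus of LSY-12, and the precipitation used an antibody against GFP. Whole L3 larvae of both sexes, 43 h after the release of starved L1 larvae, gave 1 group of 2 biological replicates, numbered 3 and 4. No second condition was analysed here. Libraries from worms lacking the tag were likewise not analysed here, and the share of signal independent of LSY-12 is unknown. Whole animals were used, and more cells with the protein at a place cannot be told apart from more protein per cell. A candidate region is an interval that the authors listed as peak or background. Thresholded peaks are those that they kept by the irreproducible discovery rate (IDR) procedure, which compares the ranks of regions between replicates. Signal is the authors' value per region, and relative signal is that value over the median of all 30000 regions in its own list, the pooled list serving for thresholded peaks too (57.3 in the pooled list, 36.4 in replicate 3 and 26.8 in replicate 4).

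The sequence under the strongest peak of the locus is shown because the strongest signal around *cbp-1* lay here, upstream of its start. It is followed by the middle of the peak between *sqv-3* and *vha-1*, the next strongest, and of the peak upstream of *ech-6*, the weakest. All are on the plus strand of ce11, taken from the RefSeq copy of WBcel235, and none overlaps an annotated exon. Capitals mark each CG dinucleotide.
cbp-1 peak, chrIII:9765452-9765751: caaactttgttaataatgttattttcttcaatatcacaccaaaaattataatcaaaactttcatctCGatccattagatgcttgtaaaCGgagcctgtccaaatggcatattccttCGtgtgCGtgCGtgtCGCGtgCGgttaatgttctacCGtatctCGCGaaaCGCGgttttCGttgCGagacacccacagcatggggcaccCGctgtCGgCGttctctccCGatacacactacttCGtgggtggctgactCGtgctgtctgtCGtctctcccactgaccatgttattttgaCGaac
sqv-3 and vha-1 peak, chrIII:9780780-9780880: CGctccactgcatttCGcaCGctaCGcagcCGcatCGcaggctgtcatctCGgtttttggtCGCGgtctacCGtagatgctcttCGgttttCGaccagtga
ech-6 peak, chrIII:9752971-9753071: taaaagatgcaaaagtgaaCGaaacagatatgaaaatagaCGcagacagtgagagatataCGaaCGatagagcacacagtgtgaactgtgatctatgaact
The 300 bases of the *cbp-1* peak held 23 CG dinucleotides and 47.0% G and C. The shorter stretch at *sqv-3* and *vha-1*, 50 bases on either side of the summit, held 12 with 57.4% G and C, and that at *ech-6* held 4 with 37.6%. Over a stretch of that shorter length, the *cbp-1* peak held 13 with 54.5%, close to the values at *sqv-3* and *vha-1*.

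A single dominant LSY-12 peak lay upstream of *cbp-1*, at chrIII:9765460-9765801, with its summit 907 bp before the annotated start. Its signal was 662 in replicate 3 and 487 in replicate 4, and 1138 in the pooled list. Relative to the median region, this was 18.2 in replicate 3, 18.2 in replicate 4 and 19.9 in the pooled list, so the mean was 18.2 ± 0.00722 (SD, n = 2). With the median of the 2095 strongest regions of each replicate as the unit, it was 6.34 ± 0.167. The level and its SD thus depend on the unit, and an SD from 2 values is a poor guide to the true spread. The peak ranked 8 of 30000 in replicate 3, 11 in replicate 4 and 10 in the pooled list. Its −log10 q-value was 2.39 in replicate 3, 2.97 in replicate 4 and 3.17 in the pooled list, which is in each case the highest value that the list holds. The summits of the replicates lay 29 bp apart. The region was 342 bp wide, and 9.59% of thresholded peaks were as narrow or narrower (median 410 bp). The other thresholded peaks of the window all had exactly this median width, so the share is a poor guide to how narrow the *cbp-1* peak is. None of its 32-mers occurs a second time in the reference, as was true of 82.2% of thresholded peaks.

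The next strongest region of the window had a far lower signal in each list. The ratio of the *cbp-1* peak to the strongest region that did not overlap it was 4.10 in replicate 3, 4.05 in replicate 4 and 4.14 in the pooled list. A flanking region at −710 bp overlapped the 3' side of the peak in replicate 3, with a relative signal of 2.70 and rank 1159. In replicate 4 the peak was overlapped by 1 region only, and in the pooled list the flanking region was 104 bp wide with a relative signal of 1.54.

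**Figure D1:**
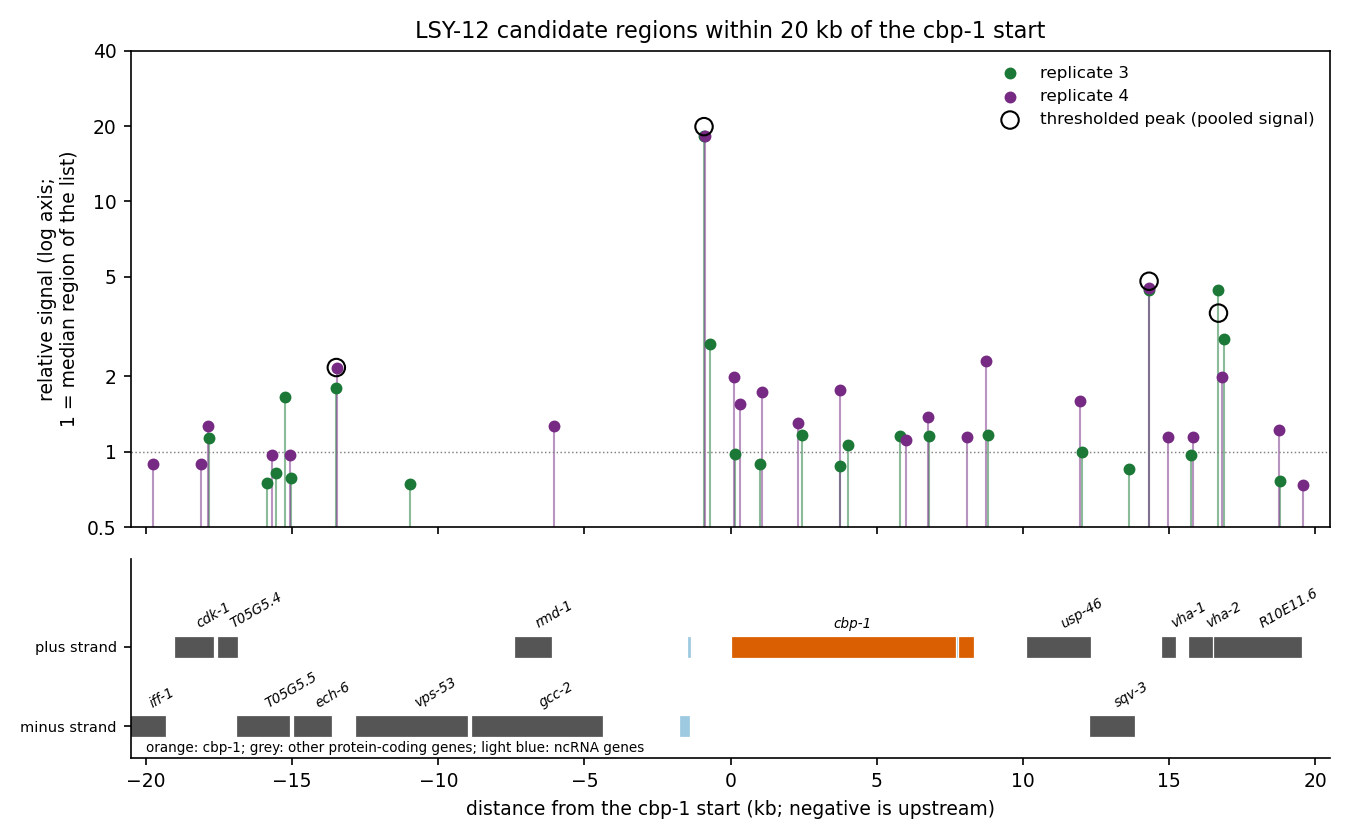
LSY-12 regions within 20 kb of the *cbp-1* start. The upper panel gives the relative signal (log axis, 1 is the median region of the list) of each candidate region of replicate 3 and replicate 4 at its summit, with open circles for the 4 thresholded peaks at their pooled value, and the lower panel gives the annotated genes by strand. The peak at −907 bp stands at 18.2 in both replicates, and the next highest points, at the other thresholded peaks, reach 4.43 in replicate 3 and 4.49 in replicate 4.

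Ranked by pooled signal, the *cbp-1* peak stood among peaks just upstream of genes that include ribosomal, chaperone and mitochondrial genes. Directly above it were the peaks of *hsp-1*, an Hsp70 chaperone (19.0 ± 0.188, SD, n = 2), *vig-1*, a homolog of an RNA silencing factor of flies (18.6 ± 1.87), and *rps-1*, a small ribosomal subunit protein (18.0 ± 1.77). Directly below it came *C47E8.4* (17.0 ± 2.51), *cox-5A*, a subunit of cytochrome c oxidase (17.0 ± 1.45), and the peak shared by *rps-19* and *hsr-9* (16.2 ± 1.84). The relative signals of *vig-1*, *rps-1*, *C47E8.4* and *cox-5A* differed from that of *cbp-1* by less than their own SD, so the order among these is not resolved. Replicate 3 alone put *cbp-1* above *vig-1* (17.3) and *rps-1* (16.7), and replicate 4 put it below them (19.9 and 19.2). On chromosome III the *cbp-1* peak was the fifth strongest of 384 thresholded peaks.

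**Figure D2:**
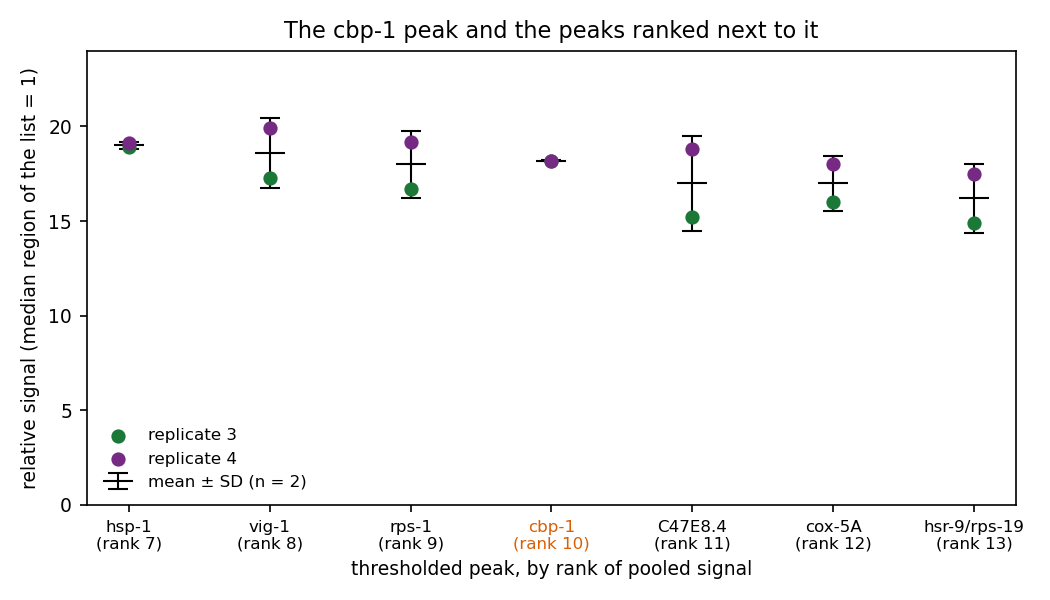
Relative signal of the *cbp-1* peak and of the 3 thresholded peaks ranked directly above and below it. Points are replicates 3 and 4, and bars give mean ± SD (n = 2). The *cbp-1* points coincide at 18.2, within the range of the replicates of *vig-1*, *rps-1* and *C47E8.4*.

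The *cbp-1* peak differed from these neighbours in its distance from a protein-coding start. The other 6 peaks had summits between −423 and −164 bp from the nearest protein-coding start. A distance of over 500 bp to every protein-coding start was found for 1249 of the 2095 thresholded peaks (59.6%), and the *cbp-1* peak had the highest signal of all of these. Among the 15 strongest peaks it was the only one so placed, whereas 13 of the 50 strongest and 42 of the 100 strongest were. Its pooled relative signal of 19.9 compared with 16.5 at the next strongest peak away from protein-coding starts, 6825 bp downstream of the start of *ppfr-1*. Starts of non-coding RNA genes were not counted here, and that of *R10E11.10* was nearer to the summit of the *cbp-1* peak, at 493 bp. For 343 thresholded peaks the summit was 500 to 2000 bp upstream of the nearest protein-coding start. Their median pooled relative signal was 3.05, close to the 3.06 of all thresholded peaks.

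Taken as most like *cbp-1* were genes with no thresholded summit within 500 bp but a peak 500 to 2000 bp upstream. Their starts also had to be the nearest to that summit, and the genes were ordered by its pooled signal. They were *egg-5*, which acts at the transition from oocyte to embryo (14.4 ± 0.722, SD, n = 2, at −597 bp), *tag-340* (12.3 ± 0.341, at −583 bp), *ubql-1*, a ubiquilin homolog (10.6 ± 1.31, at −542 bp), *nlp-76*, a gene of the neuropeptide-like class (10.2 ± 0.348, at −1341 bp), and *K12H4.5* (10.4 ± 0.418, at −523 bp). Of these 5, only the *nlp-76* peak lay farther from its start than that of *cbp-1*, and the others were just outside the limit of 500 bp. A total of 780 of the 19973 genes (3.91%) had a thresholded summit 500 to 2000 bp upstream, and 7 genes including *cbp-1* had one of at least its pooled signal. That count takes every gene start near a peak, so it includes genes whose upstream window holds the promoter peak of a neighbour.

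**Figure D3:**
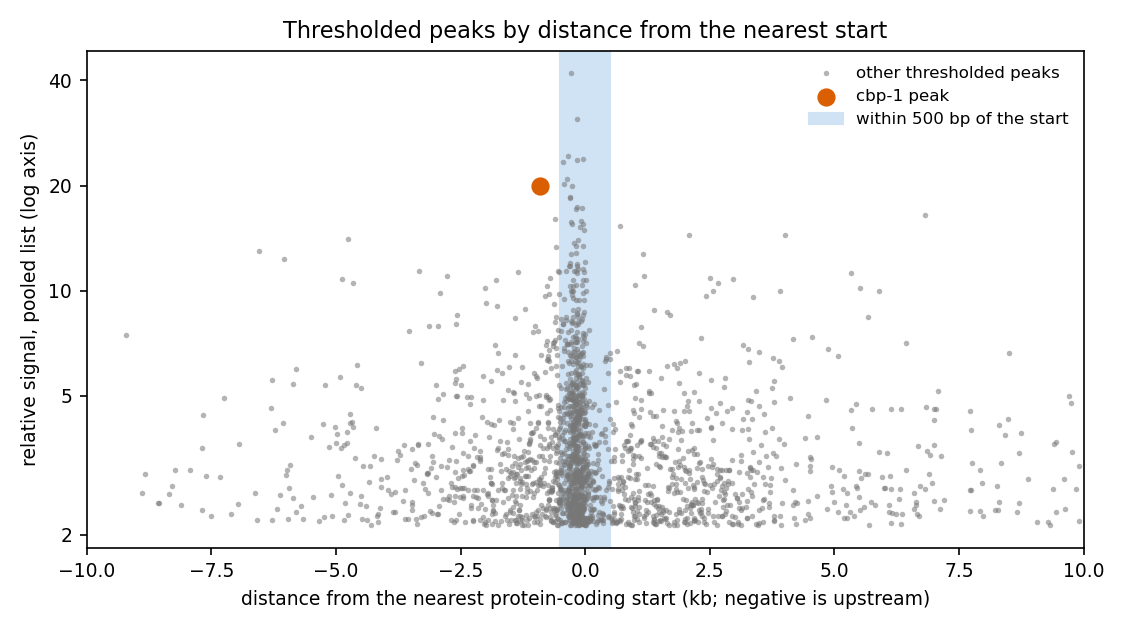
Thresholded peaks by the distance of the summit from the nearest protein-coding start (kb, negative is upstream) and by relative signal in the pooled list (log axis). The shaded band marks 500 bp on either side of the start, 42 peaks lie more than 10 kb from any start and are not drawn, and the *cbp-1* peak at 19.9 lies above every other peak outside the band.

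The peak lay in sequence between genes. The closest upstream protein-coding gene was *gcc-2*, which encodes a golgin homolog and is transcribed in the opposite direction. Its start was 3459 bp from the summit, and the interval between *gcc-2* and *cbp-1* measured 4365 bp. Both genes are thus divergent, and the summit was nearer to the start of *cbp-1* than to that of *gcc-2*. A pair of short non-coding RNA genes lay in the same interval. *R10E11.10*, on the minus strand, had the summit 493 bp upstream of its start, just inside a window of 500 bp. *R10E11.12*, on the plus strand, had its start 597 bp before the summit. In replicate 4 the summit was at −518 bp of *R10E11.10*, outside that window. All 4 annotated *cbp-1* transcripts began between chrIII:9766509 and chrIII:9766516, so the summit was at −914 to −907 bp of every one of them.

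At the *cbp-1* start itself the LSY-12 signal was far lower than at the upstream peak, and it differed between the replicates. A thresholded summit within 500 bp of the start, the rule by which 1050 of 19973 protein-coding genes (5.26%) were called bound, was absent at *cbp-1*. Its strongest pooled candidate there lay at +165 bp in the 5' UTR, with a relative signal of 1.57 and rank 4197. The replicates gave 0.977 at +148 bp in replicate 3 and 1.99 at +124 bp in replicate 4. They differed more from each other than the replicates did at the upstream peak. Over all protein-coding genes, 31.8% had a pooled candidate within 500 bp of the start, with a median of 1.1, and 8.30% had one of at least 1.57. In replicate 3, 19.5% of genes had at least the *cbp-1* value within 500 bp, and in replicate 4, where the *cbp-1* region ranked 2303 of 30000, 5.51% did.

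Candidate regions of low signal were spread along the transcribed part of *cbp-1*. The pooled list held 8 in the gene, 6 of the 8 centred outside the 5' and 3' UTRs, with relative signals from 0.900 to 1.57 and a median of 1.17. In replicate 3 the gene held 7 regions from 0.881 to 1.17, and in replicate 4 it held 8 regions from 1.11 to 1.99. No q-value among them reached 0.01 in any of the 3 lists, and none was a thresholded peak. Both replicates overlapped 7 of the 8 pooled regions, and in 6 of these 7 the relative signal was higher in replicate 4. The pooled regions at +3783 and +4017 bp were overlapped by the same replicate regions, so they are not independent. Per kb of gene this was 0.962 pooled regions, against a median of 0.265 over the 3233 protein-coding genes of 5000 bp or longer, of which 3.12% had at least as many. Repeated sequence made up 0.495% of the 32-mers of *cbp-1*, and up to 7.65% in the pooled region at +2308 bp.

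The strongest region of the window that did not pass the threshold lay 8749 bp downstream of the start, between the end of *cbp-1* and *usp-46*, which encodes a deubiquitinase that acts on a glutamate receptor. Its pooled signal was 107, with a relative signal of 1.87. The relative signal was 1.17 in replicate 3 and 2.3 in replicate 4. On the other side of the threshold, the weakest thresholded peak of the window had a pooled signal of 124, and the lowest of the whole thresholded list was 122. The 20 pooled regions of the window outside the thresholded list had relative signals from 0.744 to 1.87.

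The other 3 thresholded peaks of the window lay farther from *cbp-1* and close to the starts of other genes. A peak at −13488 bp lay at −138 bp of *ech-6*, which encodes an enoyl-CoA hydratase homolog. It had a relative signal of 1.80 in replicate 3 and 2.17 in replicate 4 (1.99 ± 0.262, SD, n = 2), and was 2014 of 2095 by rank. The peak at +14321 bp lay between the divergent starts of *sqv-3*, a galactosyltransferase of glycosaminoglycan synthesis, and *vha-1*, a membrane subunit of the vacuolar proton pump, at −424 bp of *vha-1*. Its relative signal was 4.43 in replicate 3 and 4.49 in replicate 4 (4.46 ± 0.0474). This peak ranked 418 and had the same top q-value in the pooled list as the *cbp-1* peak.

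The fourth peak, at +16696 bp, lay where the 3' UTR of *vha-2*, another membrane subunit of the proton pump, overlaps the 5' UTR of *R10E11.6*. Its relative signal was 4.43 in replicate 3 and 1.98 in replicate 4 (3.20 ± 1.73, SD, n = 2). The replicate summits were 29 bp apart at *cbp-1*, against 11 bp at *vha-1*, 16 bp at *ech-6* and 146 bp at *R10E11.6*. Replicate 3 had a further overlapping region, of 2.82, where replicate 4 had none. Candidate regions of both replicates overlapped each of the 4 peaks. This was likely beforehand, because the thresholded list was itself made from the replicates. Of the 4, only those at *cbp-1* and *vha-1* were overlapped by one of the 2095 strongest regions in both replicates. The *ech-6* region of replicate 3 ranked 2811, and the *R10E11.6* region of replicate 4 ranked 2342.

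Other neighbouring genes had no thresholded summit within 500 bp of their start. Among them were *cdk-1*, the cell cycle kinase, *iff-1*, an eIF5A homolog, *vps-53*, a subunit of a Golgi tethering complex, *rmd-1*, a regulator of microtubules, *gcc-2*, *usp-46* and *vha-2*. Of these, *vha-2* had a candidate region there in all 3 lists (0.969 in replicate 3, 1.15 in replicate 4 and 1.12 in the pooled list) and *iff-1* in replicate 4 only (0.890). *T05G5.4* and *T05G5.5* had one in all 3 lists, of 1.36 and 1.33 in the pooled list. No candidate summit was listed within 500 bp of the starts of *cdk-1*, *vps-53*, *rmd-1*, *gcc-2* and *usp-46*. On the side of *gcc-2*, the interval from 13 kb to 1 kb upstream held 1 region in each list. It lay at −10973 bp in replicate 3 (0.746), at −6046 bp in replicate 4 (1.27) and at −6042 bp in the pooled list (0.944).

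Seen against other genes, the window around *cbp-1* held many summits. The gene was chosen by the peak of 1 of them, so a count of at least 1 was fixed in advance. Of 19973 protein-coding genes, 806 (4.04%) had 4 or more thresholded summits within 20 kb, the median was 0, and 54.0% had none. Its 24 pooled candidates compared with a median of 11, and 3.50% of genes had at least as many. Of these 24, 3 had a q-value of 0.01 or below. Replicate 3 gave 24 against a median of 11, and replicate 4 gave 24 against 12. Within 10 kb, however, *cbp-1* had 1 thresholded summit, and 29.2% of genes had 1 or more. The nearest thresholded summits to the *cbp-1* peak were 12581 and 15228 bp away, against a median of 6200 bp between a thresholded summit and the nearest other, and 36.8% were at least as far from any other. Beyond the window, the next thresholded summits lay at −49167 and +52508 bp.

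**Figure D4:**
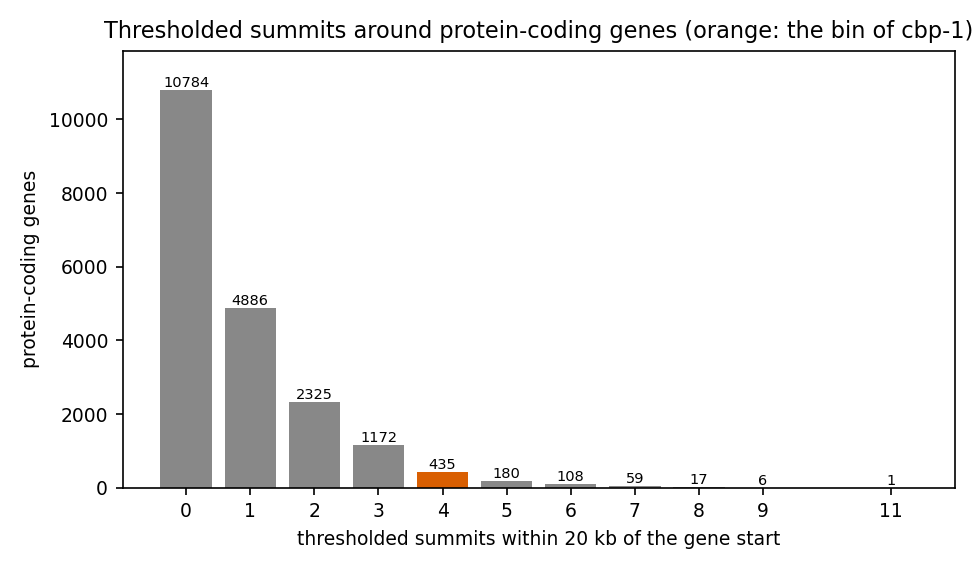
Number of protein-coding genes by the number of thresholded summits within 20 kb of the start. The orange bar is the bin of *cbp-1*, with 4 summits, and 806 of 19973 genes lie in it or to its right.

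The dominant peak was rich in CG dinucleotides. Within 150 bases on either side of its summit lay 24, against a median of 14 over the thresholded peaks and 9 over 45793 windows of that length along chromosome III. At least 24 were found in 7.21% of thresholded peaks and in 1.38% of the chromosome III windows. The 100 strongest thresholded peaks had a median of 18 and the others 14. G and C made up 47.2% of the bases at the *cbp-1* peak, with a median of 41.9% over thresholded peaks, of which 25.3% had at least as much. Along the locus, 801 overlapping windows taken every 50 bp had a median of 10 CG dinucleotides. The highest, with 28, was centred at −850 bp, inside the peak. Windows with at least 24 lay at −900, −850 and −800 bp, at −1600 bp, and at −6800 and −6700 bp, and no candidate summit was listed within 500 bp of the last 3 of these. The *vha-1* peak held 18 CG dinucleotides in such a window, the *ech-6* peak 8 and the *R10E11.6* peak 5, so the 4 peaks had no composition in common. With 50 bases on either side of the summit, the *cbp-1* and *vha-1* peaks were alike, with 13 and 12. The *ech-6* peak then held 4 and the *R10E11.6* peak 3, against a median of 6 over thresholded peaks. CG content was examined after the sequence had been seen, and whether it has a part in the signal was not tested.

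**Figure D5:**
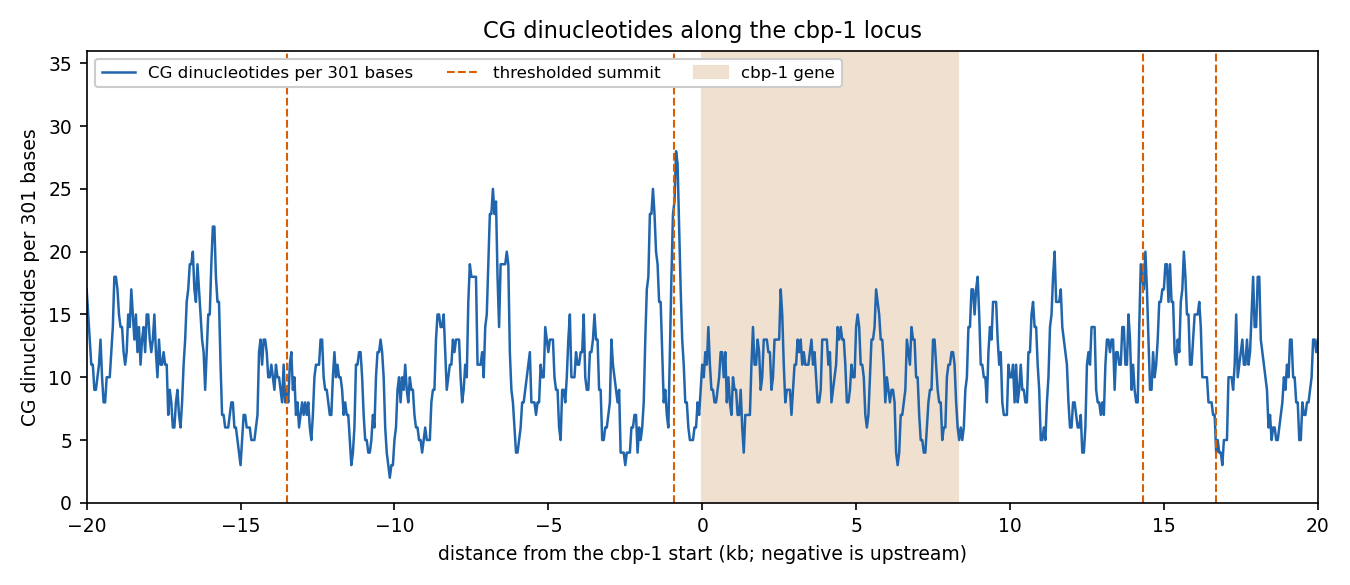
CG dinucleotides in windows reaching 150 bases to either side (vertical axis) along the *cbp-1* locus, against distance from the start in kb (negative is upstream). Dashed lines mark the 4 thresholded summits and shading the *cbp-1* gene. The highest value, 28, is at −850 bp beside the strongest summit, and the summits at −13488 and +16696 bp lie at low values.

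Of 6 motifs searched on both strands within 150 bases on either side of the summit, 1 was found at the *cbp-1* peak. GAGAGA occurred at 2 places, as its complement on the plus strand, at +67 and +118 bp from the summit. It was present in 43.9% of thresholded peaks, and 22.4% held 2 or more copies. The other motifs were not in this window. The letters CACGTG, the palindromic E-box, were present in 11.8% of thresholded peaks. The GATA-type letters TGATAA were present in 20.3% of them. The letters GGGCGG, the core of the GC box, were present in 13.6%. For the letters CTGCGTC the share of thresholded peaks was 17.7%. For the letters TATAAA, of the TATA box, it was 22.1%. The letters CGCG, looked for after the sequence had been seen, occurred at 3 places, −19, +9 and +16 bp from the summit, and 14.3% of thresholded peaks held 3 or more. The *ech-6* peak held the GAGAGA and GATA-type motifs and CTGCGTC, the *R10E11.6* peak held the TATA box letters, and none of the 6 motifs was found at the *vha-1* peak. These matches describe letters in a window and do not show what binds there.

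Genes related to *cbp-1* by sequence or function, as listed here, had no region of its size within 2000 bp of their starts. This was likely beforehand, because *cbp-1* was chosen for its high signal and such peaks are rare. Of 19973 protein-coding genes, 7 including *cbp-1* (0.035%) had a pooled region of at least its signal 500 to 2000 bp upstream. *cbp-2* and *cbp-3*, CBP-related genes annotated on the same chromosome at chrIII:9923174-9924800 and chrIII:9913993-9924768, had no thresholded summit within 20 kb. The nearest was 54894 bp from the *cbp-2* start and 45713 bp from the *cbp-3* start. Pooled candidates reached a relative signal of 1.57 inside *cbp-1*, against 0.899 inside *cbp-2* and 0.980 inside *cbp-3*. Repeated 32-mers made up 26.7% of *cbp-2* and 29.2% of *cbp-3*, so reads from these 2 overlapping annotations may not be placed uniquely.

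Of 23 genes for lysine acetylation, its removal and its recognition, 6 (26.1%) were called bound by the rule of 500 bp, beside 5.26% of protein-coding genes in general. These were 3 of 8 acetyltransferase genes, 2 of 12 deacetylase genes and 1 of 3 genes for acetyl-lysine readers. They had pooled relative signals of 7.40 at *hat-1*, a histone H4 acetyltransferase, 2.43 at *pcaf-1*, a GCN5 and PCAF homolog, and 2.26 at *lsy-12*. The pooled values were 3.18 at *sir-2.1*, a sirtuin, 2.36 at *hda-11*, a class of deacetylase related to human HDAC11, and 3.13 at *bet-2*, a bromodomain gene. The replicates did not support these peaks equally. In replicates 3 and 4 the relative signals were 6.97 and 6.45 at *hat-1*, and 3.49 and 2.66 at *sir-2.1*. They were 1.91 (rank 2447) and 2.82 (rank 1118) at *pcaf-1*, and 2.26 (rank 1690) and 2.04 (rank 2202) at *hda-11*. At *lsy-12* they were 2.75 (rank 1104) and 1.06 (rank 12755). At *bet-2*, 2 regions overlapped the peak in each replicate, and the stronger had 6.64 and 6.35. With the limit widened to 2000 bp on either side, the highest pooled relative signal was 19.9 at *cbp-1*, the value by which that gene was chosen. It was 7.40 at *hat-1*, 7.35 at *bet-2* and 4.70 at *lsy-12*, and 3.18 or lower at each of the other genes of the list. The transgene carries *lsy-12*, so copies of its DNA and binding there cannot be told apart. A summit within 5000 bp for which the gene was the nearest start was found for *cbp-1*, *hda-4*, *sir-2.2* and *bet-1* beside those 6. No candidate of the pooled list lay within 2000 bp of the start of *mys-2*, *hda-5* and *hda-10*. For *mys-1* (1.98), *hda-6* (1.90), *mys-4* (0.970) and *sir-2.4* (0.870), a pooled candidate within 500 bp was below the threshold. *cbp-3*, *hda-1*, *hda-2*, *hda-3*, *sir-2.3* and *lex-1* had a pooled candidate within 2000 bp but none within 500 bp, from 0.989 at *cbp-3* to 2.0 at *hda-2*. The list was chosen with earlier results of these data known, and its share was not tested.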

How the data were processed

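Whole L3 larvae of 1 group with 2 replicates were analysed from peak lists on ce11. Per the deposited text descriptions, the authors listed candidate regions on the alignment of each replicate with a control alignment, made a pooled list likewise, and derived the thresholded list by IDR; aligner and peak caller: not given in the sources used here. Each deposited signal value per region has no stated scale and was used within a list only. The deposited −log10 q-value was used to count regions. Summits came from the deposited offset column, which no header describes, and mostly lay at region midpoints (99.5% of regions in each replicate list). Read depth is unknown, so precision is known only from the spread of the replicates; intervals per region could not be given. Coordinates count from 1. No region extended past a WBcel235 chromosome, and genes came from Ensembl release 115. The ce10 lists were not used. The gene, the acetylation list, the motifs and the windows were chosen with earlier results of these data known, and the sequence composition was examined after the sequence was seen. Genes were named by rule: *cbp-1*, genes at the thresholded peaks of the window or with a start near it, the acetylation list, the 3 peaks on either side by rank and the 5 genes most alike; *ppfr-1* and the genes beyond 10 kb were named after their values were seen. All values are descriptions with no test, computed with Python 3.11.15, numpy 2.4.6 and pandas 2.3.3; window counts and overlaps were tested on simulated data. Alternatives were other windows, starts, thresholds, overlaps and units, and each replicate alone.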

Additional observations from a re-analysis of the deposited data

How the results depend on the processing

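The count of 4 thresholded summits within 20 kb was 1 with a window of 10 kb and 1 with a window of 5 kb. With either replicate left out, the 2095 strongest regions of the other replicate gave 4 to 5, but not at the same places. Replicate 3 alone included the flanking regions at −710 and +16877 bp and lacked that at *ech-6* (rank 2811). Replicate 4 alone included the region at +8741 bp, which was not thresholded, and lacked that at *R10E11.6* (rank 2342). The relative signal of the *cbp-1* peak was 19.9 in the pooled list, 6.34 ± 0.167 (SD, n = 2) with the median of the strongest regions as the unit, and 18.2 with either replicate left out. With the 2095 strongest regions of each replicate, 2 of the 4 peaks were seen in both. The 24 pooled candidates became 3 with a q-value of 0.01 or below and 12 within 10 kb. *cbp-1*, with 0 summits called at its start, had 1 with windows of 1000 bp on either side, with 1000 bp upstream and 100 bp downstream (1), and with the nearest start within 5000 bp (1); it had 0 with either replicate left out. Of the acetylation genes, 10 were called with the nearest start, 3 with the peaks of above-median signal and 5 with either replicate left out. The equal counts need not hold the same genes. The called peak of *pcaf-1* was outside the 2095 strongest regions in replicate 3, and those of *hda-11* and *lsy-12* were outside them in replicate 4. With 50 bases on either side of the summit 0 of the 6 motifs were found, and 3.39% of peaks held as many CG dinucleotides as *cbp-1*, an alternative chosen after seeing the data. The other alternatives tried, 17 in all with those that left out a replicate, stayed within 1.5 times a count or 1 SD of the value. For the relative signal with a replicate left out this had to hold, because each of 2 values always lies within 1 SD of their mean. No paired analysis was possible because there is 1 group. Read depth is unknown, so a region absent from a list cannot be called unbound, and 2 replicates give a poor estimate of spread.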
